A study of Sorghum bicolor with 14 samples.

Results

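Grain filling in sorghum between 10 and 20 days after pollination (DAP) was described by comparing the level of each gene in seeds at 20 DAP with its level in seeds at 10 DAP. The genes compared were the 21461 of 31337 in the deposited table with a value of at least 1 TPM, the length-normalised share of all transcripts, at 20 DAP or at 10 DAP. Because TPM corrects for gene length, levels can be set side by side between genes. The seeds came from sorghum plants of cultivar M35-1 grown in an open field, and the groups differ in age alone, per the labels: seeds at 20 DAP (3 libraries) and seeds at 10 DAP (3 libraries). Seeds at 30 DAP (2 libraries) show what became of the genes that moved, and 0-2 DAP material and unpollinated pistils taken 1-2 days before pollination (1-2 DBP), with 3 libraries each, show their earlier levels. Other libraries, alleles or treatments are not part of the comparison, and the labels do not state whether the 3 libraries of an age are separate plants.

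In a cereal grain the endosperm fills with starch and storage proteins, which in sorghum are mostly kafirins, the prolamins packed into protein bodies. Sucrose arriving from the plant is cleaved and its glucose built into starch, while the embryo grows beside the endosperm. Later in development, grains make proteins of the maturation programme, such as late embryogenesis abundant proteins and the coat proteins of oil bodies, before the seed dries. The deposited table has gene IDs without names, and 0 of its 31337 IDs were found in the reference gene table used here, so genes are given by ID and no role is assigned to the moving genes, apart from the short lists of IDs given at the end.

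For each gene the table has a single TPM value at each age. No difference below has a replicate check, and no SD, p-value or counting interval can be given. A gene was called higher or lower at 20 DAP where log2(TPM + 1) at 20 DAP minus that at 10 DAP reached 1 in either direction, which is 2-fold on that scale. Calls between 20 and 10 DAP were made on the values as deposited and again after median-ratio scaling, which divides each stage by the median ratio of its genes to their geometric mean over all 5 stages. That scaling lifts 20 DAP against 10 DAP by 0.62 on the log2 scale. At 20 DAP the 10 most abundant genes took 31.1% of all TPM, compared with 21.9% at 10 DAP. The median log2 difference of the 21461 genes was -0.54 as deposited and -0.02 after scaling, and every difference below reads against that shift.

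Over the 21461 genes, 1033 (4.81%) were higher at 20 DAP and 4586 (21.4%) lower as deposited. With median-ratio scaling these were 1920 (8.95%) and 2144 (9.99%). Among genes past 2-fold, 18.4% were higher as deposited and 47.2% after scaling, so the balance of the calls depends on the scaling. A total of 1471 genes had at least 100 TPM at 20 DAP or 10 DAP, of which 678 did so at both stages, 207 at 20 DAP alone and 586 at 10 DAP alone. A gene that reaches 100 TPM at 1 stage only is more likely to differ, so the shares among these 1471 genes are not set against those of all genes as a result. As deposited, 206 of the 1471 were higher at 20 DAP and 516 lower. After scaling, 285 were higher and 221 lower, and the part of higher genes among those past 2-fold was 56.3% against 28.5% as deposited. The moving genes described below are those that passed 2-fold in 1 direction both as deposited and after scaling. Over all genes that rule called 4.81% higher and 9.99% lower. Among the genes of 100 TPM or more it left 206 genes higher at 20 DAP and 221 lower, of which 37 and 27 had 100 TPM at both stages.

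**Figure D1:**
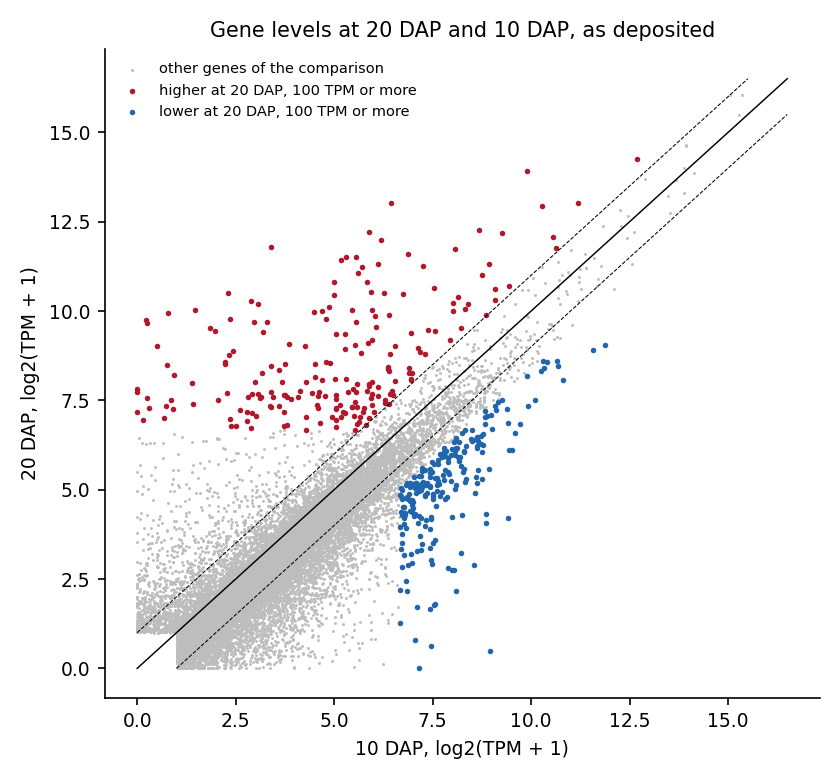
Level of each of the 21461 genes at 20 DAP (vertical axis) and 10 DAP (horizontal axis), as log2(TPM + 1) as deposited, with the line of equal levels and dashed lines at 2-fold. The 206 higher genes of 100 TPM or more spread widely above the lines, while the 221 lower genes lie below the lower line, at a median log2 difference of -2.40; grey points of 100 TPM or more below that line are genes that passed 2-fold as deposited alone.

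The 206 higher genes together made up 19.9% of total TPM in 20 DAP seeds, compared with 2.79% in 10 DAP seeds. Their share had been 1.24% in the unpollinated pistil and 0.851% at 0-2 DAP, and it stood at 48.0% at 30 DAP. The median of the 206 was 275 TPM at 20 DAP, set against 35.1 TPM at 10 DAP, and the median log2 difference was 3.54 as deposited and 4.16 after scaling. Of the 206, 119 were at least 8-fold and 36 at least 64-fold higher on the log2(TPM + 1) scale. In either direction, 453 and 44 of all 21461 genes passed these limits, and 178 and 40 of the 1471 genes of 100 TPM or more. The 206 were chosen for passing 2-fold, which favours such counts. Under 1 TPM at 10 DAP were 16 of the 206, and 10 of these had been under 1 TPM in the pistil and at 0-2 DAP as well. Over all 21461 genes these counts were 715 and 365. At the step before, from 0-2 to 10 DAP, 131 of the 206 had already been higher and 28 lower, against 12.5% and 37.1% of all genes compared. Of the 1471 genes of 100 TPM or more, 559 (38.0%) were higher at that step and 135 lower, so much of the contrast with all genes is shared by abundant genes. After scaling, 151 and 15 of the 206 were higher and lower, against 22.4% and 12.7% of all genes. Among the 1471 these were 896 and 36. The comparisons at 10 and at 20 DAP share the 10 DAP column, so a low value there lowers the first difference and raises the second.

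The gene with the largest difference, Sobic.004G196900, had 852 TPM at 20 DAP, against 0.169 TPM at 10 DAP, or 9.51 on the log2 scale, and 10.09 once scaled. It went on to 12834 TPM at 30 DAP. Sobic.001G418500 had 813 TPM at 20 DAP against 0.193 TPM at 10 DAP, and Sobic.003G130200 had 982 and 0.708 TPM at the same stages. Both were near 0 in the pistil and at 0-2 DAP, and both were higher still at 30 DAP, at 2126 and 2705 TPM. Sobic.009G104500 stood at 1045 TPM at 20 DAP, against 1.77 TPM at 10 DAP, and at 7168 TPM at 30 DAP. The next gene, Sobic.007G004900, had 515 TPM at 20 DAP, set against 0.421 TPM at 10 DAP. Sobic.006G132300 was the most abundant of the 10 genes with the largest differences, at 3532 TPM at 20 DAP, compared with 9.59 TPM at 10 DAP. All 10 were below 10 TPM at 10 DAP and between 211 and 3532 TPM at 20 DAP.

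Of the remaining genes among those 10, Sobic.006G196700 had 3.98, 1460.0 and 18122 TPM at 10, 20 and 30 DAP. Its 30 DAP level was the highest of the 10 genes. Sobic.008G159000 followed the same order, with 0.694, 357 and 2273 TPM. Sobic.004G195900 was listed at 0 TPM at 10 DAP, then at 211 and 1850.3 TPM at 20 and 30 DAP. Only Sobic.001G165600 among the 10 went the other way after 20 DAP, with 0, 223 and 81.8 TPM listed at 10, 20 and 30 DAP. Against 20 DAP its 30 DAP level was -1.44 on the log2 scale as deposited and -0.73 after scaling, so it is within 2-fold on the scaled values.

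**Figure D2:**
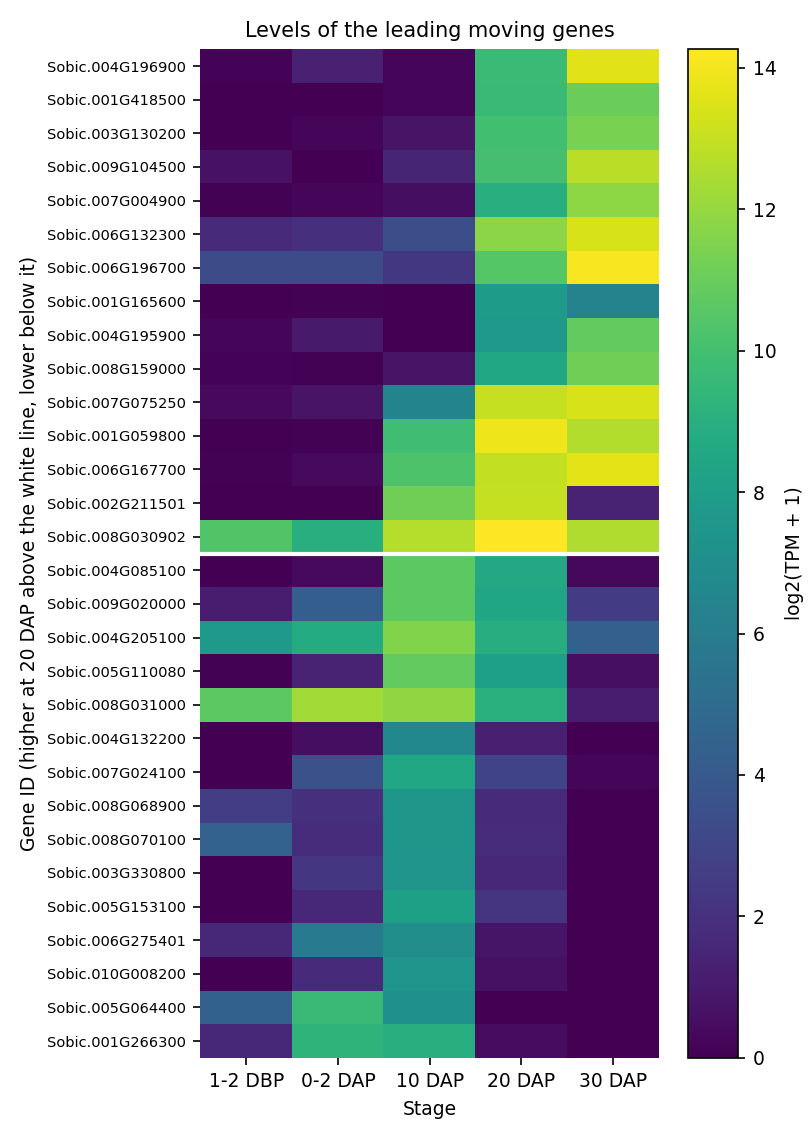
Level of the 10 genes with the largest difference in each direction and of the 5 most abundant moving genes in each direction, as log2(TPM + 1) in each of the 5 stages as deposited, from dark (0) to yellow (the highest level). Above the white line, genes are brighter at 20 DAP than at 10 DAP, while below it they are brighter at 10 DAP than at 20 DAP and at most 19.6 TPM at 30 DAP.

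The most abundant of the higher genes had 955 TPM or more already at 10 DAP in 4 of 5 cases. Sobic.008G030902 led with 19662 TPM at 20 DAP, against 6537 TPM at 10 DAP, and was back at 6031 TPM at 30 DAP. It was also present in the pistil, at 1366 TPM, and at 0-2 DAP, at 484 TPM. Sobic.001G059800 had 15458 TPM at 20 DAP against 955 TPM at 10 DAP, a log2 difference of 4.02, and 6289.9 TPM at 30 DAP. Sobic.006G167700 had 1241, 7808 and 12996 TPM at 10, 20 and 30 DAP, each higher than the one before. The exception, Sobic.007G075250, had 8339.7 TPM at 20 DAP, against 86.4 TPM at 10 DAP. Sobic.002G211501 had 8357 TPM at 20 DAP, set against 2319.9 TPM at 10 DAP, and of these 5 it alone was nearly gone at 30 DAP, at 1.69 TPM.

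The levels at 30 DAP were not used to choose the genes. The difference of 30 DAP against 20 DAP does share the 20 DAP column with the choice, which favours lower values at 30 DAP for genes chosen as high at 20 DAP. As deposited, 8.93% of all 21461 genes were 2-fold higher at 30 DAP than at 20 DAP and 32.1% lower. Of the 206 genes that were higher at 20 DAP, 106 were higher again at 30 DAP, 43 stayed within 2-fold and 57 were lower. In percent, 51.5% of the 206 were higher at 30 DAP than at 20 DAP and 27.7% lower, while of the 670 genes of 100 TPM or more that stayed within 2-fold between 20 and 10 DAP under both scalings 14.5% were higher and 38.2% lower. After scaling, 19.0% of all genes were called higher and 23.1% lower, and 33.1% and 26.1% of the 670. Of the 206, 128 (62.1%) were then higher at 30 DAP and 48 (23.3%) lower. The lower share of the 206 was thus near that of all genes and of the 670 after scaling, while the higher share stayed above both. The 106 genes higher again were all higher after scaling too, and 48 of the 57 lower genes stayed lower. Against 10 DAP, 154 of the 206 were higher at 30 DAP and 38 lower, where 7.70% and 54.7% of all genes were. With scaling the counts were 161 and 32, where 21.6% and 28.6% of all genes were. The 206 were chosen as lower at 10 DAP, which favours higher values in that comparison, so its counts are a description. Among the 206, 130 had their highest level of all 5 stages at 30 DAP and 71 at 20 DAP, the stage on which they were chosen. Of all genes compared, 8.37% were highest at 30 DAP and 5.06% at 20 DAP. After scaling, 149 of the 206 were highest at 30 DAP and 55 at 20 DAP, beside 6824 and 2874 of the 21461 genes. The contrast with all genes therefore depends on the scaling.

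**Figure D3:**
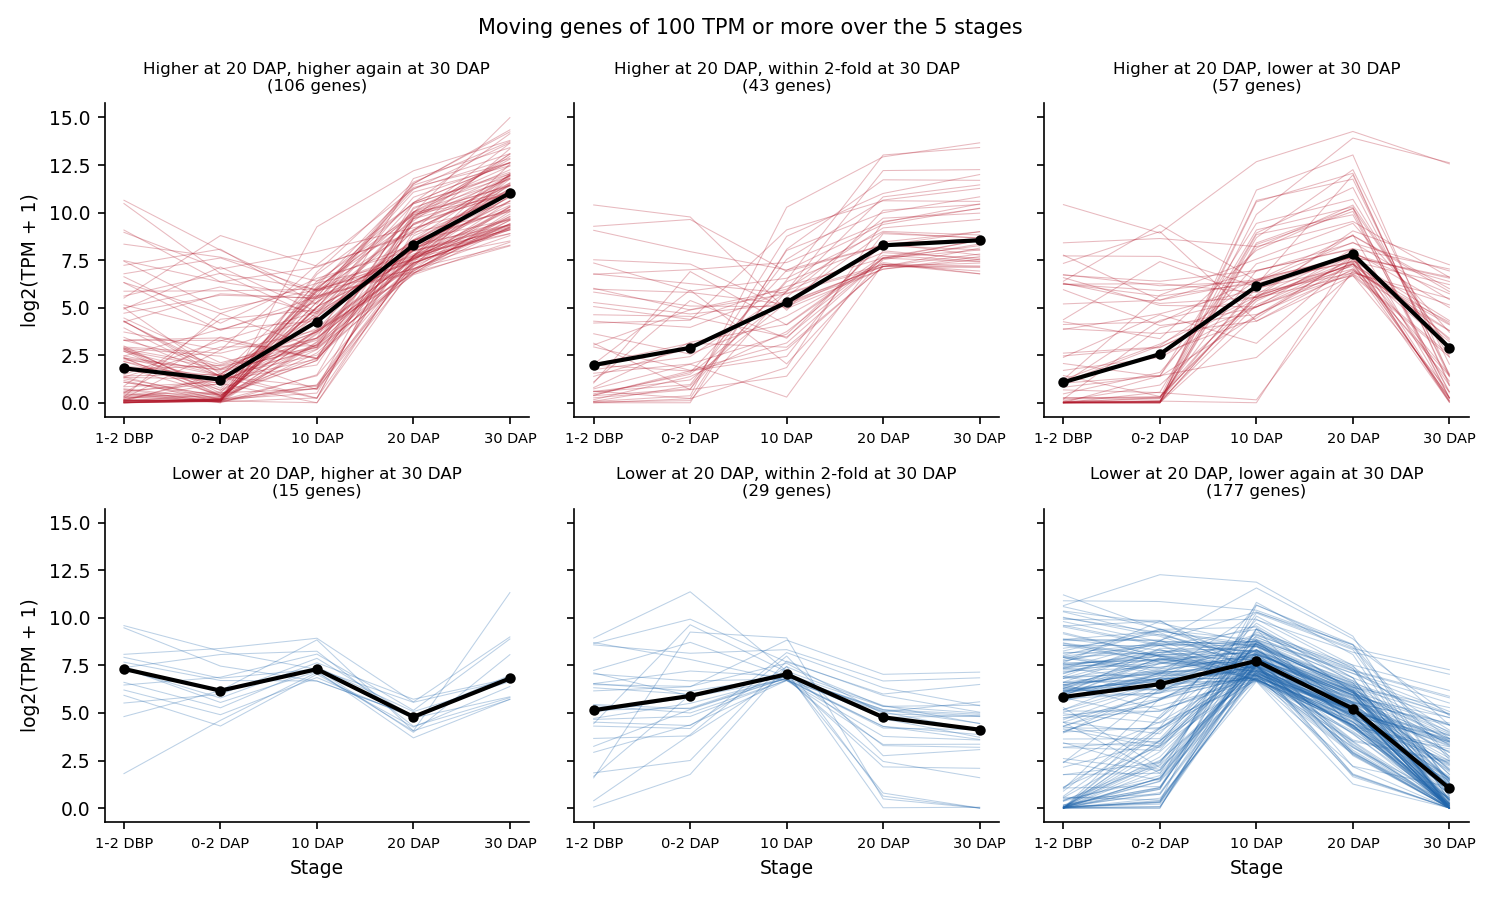
Level of each moving gene of 100 TPM or more in the 5 stages, as log2(TPM + 1) as deposited, with 1 thin line per gene and the median as the black line. The upper panels hold the 206 genes higher at 20 DAP and the lower panels the 221 genes lower at 20 DAP, split by the 2-fold difference of 30 DAP against 20 DAP into 106, 43 and 57 genes and into 15, 29 and 177 genes.

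The 106 genes that were higher at 20 DAP and higher again at 30 DAP had medians of 18.3, 312 and 2077 TPM at 10, 20 and 30 DAP. Their share of all TPM was 0.397%, 7.43% and 40.7% at those stages, and 74 of them reached 1000 TPM at 30 DAP. The next 7 IDs were picked with their values known. Sobic.009G116700 was the most abundant of the 106 at 30 DAP, with 21.5, 1009.7 and 32535 TPM at 10, 20 and 30 DAP. It also had the largest further difference, 5.01 on the log2 scale for 30 DAP against 20 DAP. Sobic.001G144900 had 38.5, 2902 and 20853 TPM, and Sobic.001G311200 had 45.9, 2937 and 19391 TPM. Sobic.001G126900 was stronger at 10 DAP, with 609 TPM, then 4692 and 14171 TPM at 20 and 30 DAP. Among genes of lower level at 20 DAP, Sobic.001G515700 had 9.62, 211 and 5987 TPM, Sobic.001G497700 had 12.3, 143 and 3888 TPM, and Sobic.001G091000 had 1.67, 168 and 4039.7 TPM. All 3 were at least 10-fold higher at 30 DAP than at 20 DAP, as were 14 of the 106 on the log2(TPM + 1) scale. The same held for 169 of all 21461 genes and for 20 of the 1471 genes of 100 TPM or more.

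The 57 genes that were higher at 20 DAP and lower at 30 DAP had medians of 68.5, 223 and 6.41 TPM at 10, 20 and 30 DAP. Their share of all TPM was 1.94%, 8.12% and 1.37% at those stages. Most of the share at 30 DAP lay in Sobic.008G030902, with 0.603%, and Sobic.001G059800, with 0.629%. After scaling both were within 2-fold of 20 DAP, at -0.99 and -0.59 on the log2 scale. Loss was deep in many of the 57. The 30 DAP level was at least 10-fold below that at 20 DAP in 34 and at least 50-fold below it in 26. Deep loss was also frequent among all 658 genes of 100 TPM or more that were lower at 30 DAP, with 324 and 163. Over all 21461 genes these counts were 761 and 185. Under 1 TPM at 30 DAP were 16 of the 57, beside 6049 of all genes. For the 57 the difference between 20 and 10 DAP was smaller than in the genes that were higher again, with a median of 1.86 against 4.34 on the log2 scale as deposited. Sobic.005G186300, chosen like the next pair of IDs after its values were seen, had 1509.6, 4289 and 0.861 TPM at 10, 20 and 30 DAP. Sobic.002G078800 had 1592, 3462 and 1.58 TPM. Sobic.002G362400 combined a large gain with a deep loss, with 72.3, 4048 and 0.981 TPM at 10, 20 and 30 DAP, and it was below 0.1 TPM in the pistil and at 0-2 DAP. It was therefore abundant at 20 DAP and under 100 TPM at every other stage.

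The 43 genes that stayed within 2-fold at 30 DAP had medians of 37.8, 309 and 372 TPM at 10, 20 and 30 DAP. Chosen after its values were seen, Sobic.007G029800 had 57.9, 4732 and 4894 TPM at 10, 20 and 30 DAP. Sobic.005G165700, chosen in the same way, had 268, 3376 and 3314 TPM. Both were at nearly equal levels at 20 and 30 DAP as deposited. This group is the one that depends most on the scaling, since 22 of the 43 were 2-fold higher at 30 DAP after scaling.

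**Figure D4:**
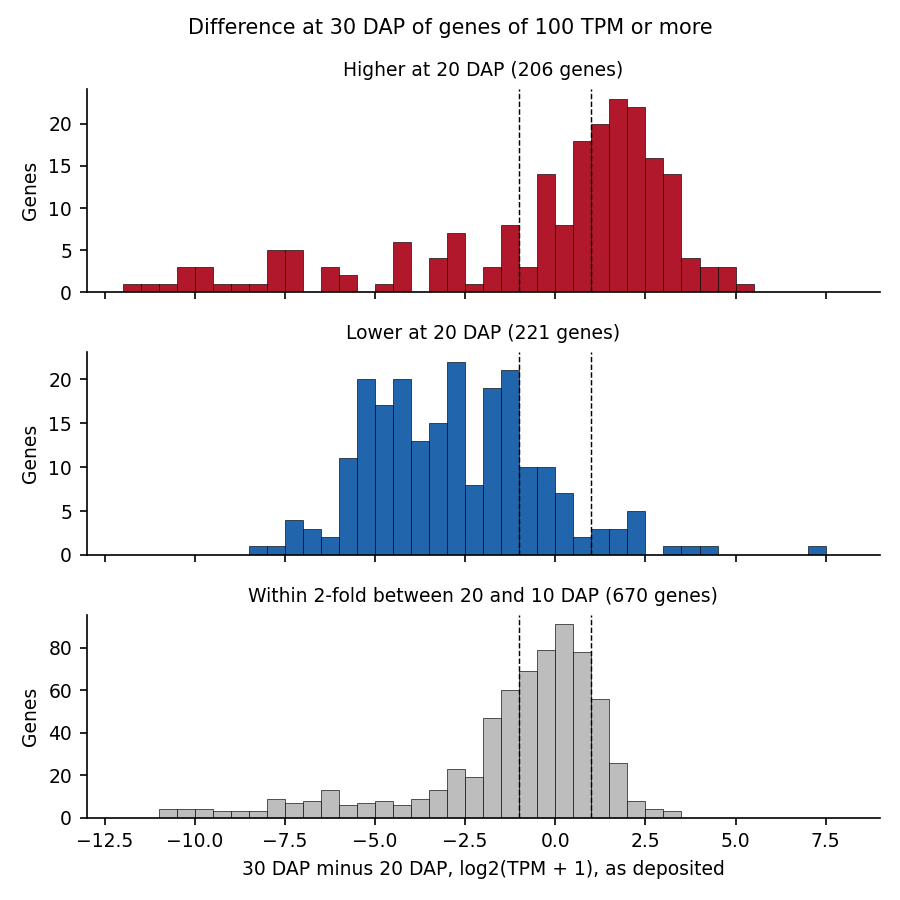
Number of genes by their difference of 30 DAP minus 20 DAP in log2(TPM + 1) as deposited, for the 206 genes higher at 20 DAP (top), the 221 lower at 20 DAP (middle) and the 670 genes of 100 TPM or more within 2-fold between 20 and 10 DAP under both scalings (bottom); dashed lines mark 2-fold. The higher genes lie mostly to the right of 0 with a long tail to the left, and the lower genes lie mostly to the left.

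A few of the higher genes had been abundant before seed growth. Of the 206, 29 had reached 100 TPM in the pistil or at 0-2 DAP. The same held for 2218 of all 21461 genes and for 904 of the 1471 genes of 100 TPM or more. In the pistil 4 of the 206 had reached 1000 TPM, beside 61 of all genes and 53 of the 1471. The pair named here was chosen after its values were seen, like Sobic.009G116700 above, which had 1421 TPM in the pistil. Sobic.001G191200 had 1602 TPM in the pistil and 259 TPM at 0-2 DAP, then 48.6, 119 and 967 TPM at 10, 20 and 30 DAP. Sobic.003G088400 had 1349.5 and 871 TPM in the pistil and at 0-2 DAP, and 28.0, 1111 and 1374 TPM at 10, 20 and 30 DAP. For these 3 genes 10 DAP was the lowest of the 5 stages. The labels do not say whether the pistil and 0-2 DAP libraries were made apart from the seed libraries.

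In the 221 lower genes lay 6.97%, 1.29% and 0.688% of all TPM at 10, 20 and 30 DAP. Earlier their share had been 3.70% in the pistil and 4.37% at 0-2 DAP. Their median was 35.0 TPM at 20 DAP, compared with 193 TPM at 10 DAP, with a median log2 difference of -2.40 as deposited and -1.79 after scaling. Of the 221, 59 were at least 8-fold and 4 at least 64-fold lower, and 10 had reached 1000 TPM at 10 DAP. Over all 21461 genes, 453 and 44 passed these fold limits in either direction, and 80 had reached 1000 TPM at 10 DAP. For 154 of the 221 the highest of the 5 stages was 10 DAP, for 34 it was 0-2 DAP, for 30 the unpollinated pistil and for 3 it was 30 DAP. Of all genes compared, 17.3% were highest at 10 DAP, and of the 1471 genes of 100 TPM or more 36.8%. At the step from 0-2 to 10 DAP, 121 of the 221 had been higher and 21 lower, against 12.5% and 37.1% of all genes. Of the 1471 genes of 100 TPM or more, 559 (38.0%) were higher at that step and 135 lower. After scaling, 155 and 7 of the 221 were higher and lower, against 22.4% and 12.7% of all genes. Among the 1471 these were 896 and 36. All 221 had 100 TPM or more at 10 DAP by choice, which favours a high place for that stage in each of these counts.

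Sobic.001G266300 showed the largest loss, with 0.398 TPM at 20 DAP, against 493 TPM at 10 DAP, or -8.46 on the log2 scale, and -8.23 once scaled. It had been at 609 TPM at 0-2 DAP and was listed at 0 TPM at 30 DAP. A similar loss was that of Sobic.005G064400, with 0.0120 TPM at 20 DAP against 142 TPM at 10 DAP, after 797 TPM at 0-2 DAP. These were the only 2 of the 10 largest losses with a level above 100 TPM before 10 DAP. Sobic.010G008200 had 0.546 TPM at 20 DAP, set against 175 TPM at 10 DAP, with 2.41 TPM at 0-2 DAP and 0 TPM listed at 30 DAP. Sobic.006G275401 had 0.728 TPM at 20 DAP, compared with 132 TPM at 10 DAP, after 61.3 TPM at 0-2 DAP.

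For the other 6 of the 10 largest losses 10 DAP stood out from all other stages. Sobic.007G024100 had 6.41 TPM at 20 DAP against 374 TPM at 10 DAP, and Sobic.005G153100 had 3.52 and 274 TPM. Sobic.003G330800 had 2.14 TPM at 20 DAP, set against 172 TPM at 10 DAP. Levels in the pistil were 0 TPM as listed for these 3 and for Sobic.004G132200, which had 1.40 TPM at 20 DAP, compared with 100.06 TPM at 10 DAP. Sobic.008G070100 had 2.47 TPM at 20 DAP against 189 TPM at 10 DAP, and Sobic.008G068900 had 2.39 and 183 TPM. Of these 6, all but Sobic.007G024100, at 0.175 TPM, were listed at 0 at 30 DAP.

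The most abundant lower genes lost less in proportion. Sobic.008G031000 had 525 TPM at 20 DAP, against 3764 TPM at 10 DAP, or -2.84 on the log2 scale, and -2.22 once scaled. It had been at 4943 TPM at 0-2 DAP and stood at 1.16 TPM at 30 DAP. Sobic.004G205100 had 476 TPM at 20 DAP, set against 3045 TPM at 10 DAP, and Sobic.005G110080 had 268 and 1802 TPM. Sobic.009G020000 had 351 TPM at 20 DAP, compared with 1644 TPM at 10 DAP, and Sobic.004G085100 had 389.7 and 1619 TPM. All 5 were lower again at 30 DAP, between 0.250 TPM for Sobic.004G085100 and 19.6 TPM for Sobic.004G205100.

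Most genes that were lower at 20 DAP were lower still at 30 DAP. As deposited, 177 of the 221 were 2-fold lower at 30 DAP than at 20 DAP, 29 stayed within 2-fold and 15 were higher, and after scaling 150 were lower, 54 within 2-fold and 17 higher. In percent, 80.1% of the 221 were lower as deposited, beside 38.2% of the 670 genes of 100 TPM or more within 2-fold between 20 and 10 DAP and 32.1% of all genes. After scaling, 67.9% of the 221 were lower, beside 26.1% of the 670 and 23.1% of all genes. Higher after scaling were 7.69%, 33.1% and 19.0% in the same order. Of the 221, 91 were under 1 TPM at 30 DAP and 42 were listed at 0, while 13 had 100 TPM or more. Over all 21461 genes these counts were 6049, 1151 and 887. Over the 1471 genes of 100 TPM or more at 20 or 10 DAP they were 191, 65 and 601. The table gives no read depth, and in seeds measured whole, fewer cells of a type and less RNA per cell cannot be told apart.

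The 15 genes that were lower at 20 DAP and higher at 30 DAP had medians of 157, 26.8 and 112 TPM at 10, 20 and 30 DAP. That 20 DAP lay below both neighbours follows from how they were chosen. A low value in the shared 20 DAP column favours both differences. As deposited these 15 were 6.79% of the 221, beside 8.93% of all genes and 14.5% of the 670 genes within 2-fold between 20 and 10 DAP. The same 15 were higher at 30 DAP after scaling. The 5 named here were picked with their values known. Sobic.002G075800 had 459, 15.6 and 2572 TPM at 10, 20 and 30 DAP, and it was the 1 gene of the 15 that was also 2-fold higher at 30 DAP than at 10 DAP as deposited. Sobic.002G384400 had 273, 34.2 and 474 TPM, and Sobic.003G208800 had 487, 46.9 and 511 TPM. Sobic.002G403833 was most abundant in the pistil, at 771 TPM, and had 156, 14.8 and 267 TPM at 10, 20 and 30 DAP. Sobic.009G120800 had 130.4, 18.1 and 83.0 TPM.

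**Figure D5:**
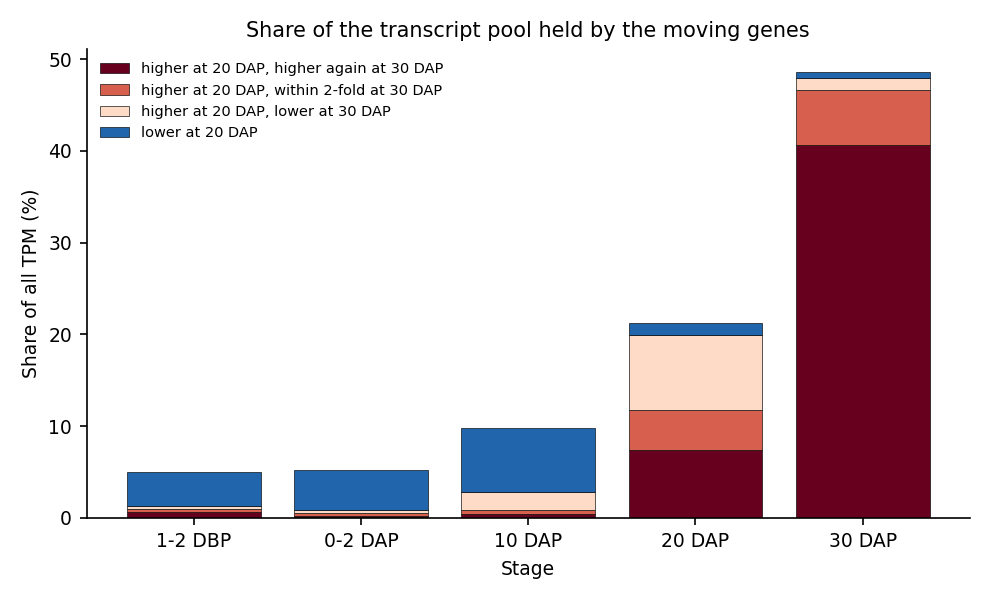
Share of all TPM as deposited held in each stage by the moving genes of 100 TPM or more, stacked by class, with the 206 higher genes split by their difference at 30 DAP. At 10, 20 and 30 DAP the higher genes held 2.79%, 19.9% and 48.0%, and the lower genes 6.97%, 1.29% and 0.688%.

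Moving genes next to each other in ID order were 35 of the 206 higher genes, in 19 neighbouring pairs, and 18 of the 221 lower genes, in 11 pairs. No such count was made for all genes or for the other genes of 100 TPM or more. These numbers are therefore a description, and whether neighbours are more frequent among moving genes was not tested. Runs of 3 or more neighbours numbered 3. The run from Sobic.004G196900 to Sobic.004G197100 holds 3 genes that summed to 3.13, 1689 and 15572 TPM at 10, 20 and 30 DAP. Besides Sobic.004G196900, Sobic.004G197000 had 2.96, 693 and 2056 TPM at 10, 20 and 30 DAP, and Sobic.004G197100 had 0 listed, 144 and 681 TPM. All 3 were higher again at 30 DAP.

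The second run, of 4 genes from Sobic.009G009800 to Sobic.009G010150, summed to 1403, 8837 and 5.64 TPM at 10, 20 and 30 DAP. Sobic.009G009900 was the strongest, with 4887 TPM at 20 DAP, against 409 TPM at 10 DAP, and Sobic.009G009800 had 2549.5 and 485 TPM. Sobic.009G010000 had 457 TPM at 20 DAP against 50.05 TPM at 10 DAP, and Sobic.009G010150 had 944 and 459 TPM. All 4 were below 0.2 TPM in the pistil and at 0-2 DAP and below 4 TPM at 30 DAP.

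The third run, of 6 genes from Sobic.003G172908 to Sobic.003G172918, was lower, with sums of 1750.2, 490.1 and 187 TPM at 10, 20 and 30 DAP. The log2 differences of the 6 lay between -1.88 and -1.70 as deposited and between -1.27 and -1.10 after scaling. Their levels ranged from 41.0 TPM for Sobic.003G172918 to 135 TPM for Sobic.003G172914 at 20 DAP, and from 146 to 501 TPM for the same genes at 10 DAP. Sobic.003G172918 differed from the other 5 at 0-2 DAP, with 2650.5 TPM against at most 17.8 TPM. Where neighbouring IDs are near-identical copies, reads could be divided among them by the counting. How reads matching several genes were counted is not given in the sources used here, so the values of single genes in these runs are uncertain.

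By ID prefix, which gives the chromosome number in this ID series, the higher genes made up between 7.94% (Sobic.008G, 5 of 63) and 19.6% (Sobic.001G, 53 of 270) of the genes of 100 TPM or more. The lower genes made up between 11.8% (Sobic.009G, 18 of 152) and 19.8% (Sobic.005G, 19 of 96). Both directions were therefore found under each of the 10 prefixes.

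Of the 100 most abundant genes, 6 were among the 206 higher genes at 10 DAP, 50 at 20 DAP and 75 at 30 DAP. Of the 75 at 30 DAP, 64 belonged to the 106 genes that were higher again. At 30 DAP 138 genes of the comparison had 1000 TPM or more, and 90 of them were among the 206. The 100 most abundant genes held 41.1%, 56.4% and 56.6% of all TPM at 10, 20 and 30 DAP. The lower genes contributed 13, 0 and 1 of the 100 at the same stages. For both sets the numbers at 10 and 20 DAP follow from how the genes were chosen.

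For the genes at the top of both stages the call depended on the scaling. The most abundant gene over both, Sobic.005G184700, had 67799 TPM at 20 DAP, set against 41745 TPM at 10 DAP, with log2 differences of 0.70 as deposited and 1.32 after scaling. Sobic.002G211700 had 67112 and 33697 TPM, with 0.99 and 1.61. Sobic.005G184400, at 25450.2 TPM at 20 DAP, compared with 15566 TPM at 10 DAP, and Sobic.005G184800, at 24936 and 15662 TPM, also passed 2-fold after scaling alone. Sobic.009G001600, at 45724 TPM at 20 DAP against 39549 TPM at 10 DAP, passed under neither. All 5 had at most 36.6 TPM at 30 DAP.

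In all, 79 genes of 100 TPM or more were higher after scaling alone, with 14.4%, 24.5% and 3.38% of all TPM at 10, 20 and 30 DAP. A further 295 were lower as deposited alone, with 9.69%, 3.99% and 2.97% at the same stages. The most abundant of these at 10 DAP, chosen after its values were seen, was Sobic.009G007100, with 2552 TPM at 20 DAP, set against 6076 TPM at 10 DAP, or -1.25 on the log2 scale, and -0.63 once scaled. Sobic.003G326300, chosen in the same way, had 1571 and 4374 TPM, with -1.48 and -0.86.

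Lists of IDs written down from general knowledge of the sorghum genome, and not checked against an annotation, gave the levels of kafirin and sugar metabolism candidates. The 3 IDs listed as kafirins, Sobic.009G001600, Sobic.002G211700 and Sobic.005G185600, were among the abundant seed transcripts at both stages. The lists were chosen with earlier results of these data known, so this abundance is no check of the labelled tissue. Together the 3 held 8.82%, 12.3% and 0.00672% of all TPM at 10, 20 and 30 DAP. None of the 3 passed 2-fold as deposited and 1 was higher after scaling, Sobic.002G211700, beside 4.81% and 8.95% of all genes higher. Whether these 3 IDs stand for other kafirin genes was not tested. Sobic.005G185600 had 10121 TPM at 20 DAP, compared with 15003 TPM at 10 DAP, with log2 differences of -0.57 as deposited and 0.05 after scaling. The median of the 3 on the log2 scale, 0.21 as deposited and 0.83 with scaling, turned to -0.45 under quantile normalization, and over all genes the median was -0.54 as deposited and -0.02 with scaling.

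The starch synthesis list has 6 IDs, of which 3 were lower at 20 DAP as deposited and none after scaling, beside 21.4% and 9.99% of all genes. Its most abundant ID, Sobic.010G022600, had 2191 TPM at 20 DAP against 1971 TPM at 10 DAP. Sobic.007G101500 had 179 and 526 TPM, and Sobic.003G230500 had 188 and 418 TPM at the same stages. The list median was -0.999 as deposited and -0.39 after scaling, beside -0.54 and -0.02 over all genes. Of the 3 IDs listed as sucrose synthase, 2 were lower as deposited and 1 after scaling, beside the same shares of all genes. Sobic.010G072300, at 173 TPM at 20 DAP, set against 569.9 TPM at 10 DAP, was lower under both scalings, and at 30 DAP it had 11.7 TPM. Sobic.001G344500, at 157 and 465 TPM, was lower as deposited alone, and Sobic.001G378300, at 29.6 and 46.8 TPM, passed under neither. The median of these 3 was -1.56 as deposited and -0.95 after scaling. For flavonoid and tannin synthesis a single ID was listed, Sobic.004G280800, with 7.53 TPM at 20 DAP, compared with 9.74 TPM at 10 DAP, whose difference was -0.33 as deposited and 0.22 after scaling.

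At the limit of 100 TPM, the moving genes just inside were Sobic.004G132200, described above, and Sobic.005G085600, with 27.8 TPM at 20 DAP against 101 TPM at 10 DAP. Just outside were Sobic.003G292400, with 99.99 and 12.3 TPM, and Sobic.002G185100, with 99.8 and 11.4 TPM. Sobic.005G085600 came back to 125 TPM at 30 DAP, and Sobic.002G185100 went on to 1995 TPM.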

How the data were processed

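Total RNA of seeds was sequenced in 3 libraries for 20 DAP, another 3 for 10 DAP and 2 for 30 DAP, with 3 libraries each for pistils and 0-2 DAP material. Extraction used a modified Trizol protocol, and 2 library kits are named for all libraries alike, per the labels' protocols. The deposited table gives TPM values, 1 column per stage, per the file headers. It is not stated how libraries were merged into stage values. The submitters' processing notes list HISAT2, featureCounts 2.2.0 and DESeq2 but no roles for them. Genome build and annotation: not given in the sources used here.

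From the table, log2(TPM + 1) differences were computed among genes of at least 1 TPM at 20 or 10 DAP, and a gene was called at 2-fold. Median-ratio factors over the 5 columns were 0.673 for 20 DAP, 1.03 for 10 DAP and 0.411 for 30 DAP. With 1 value per stage no test could be run, and the depth of the libraries is not known here. Moving genes had 100 TPM or more and passed 2-fold in the same direction as deposited and after scaling. The genes named are the 10 with the largest difference and the 5 most abundant in each direction, the 5 most abundant of both stages, those at the 100 TPM limit, runs of 3 or more neighbours, and listed IDs. Others are said to have been chosen after their values were seen. The comparison, its gene lists and limits were chosen with earlier results of these data known. Lists planned by pattern on gene descriptions could not be used, since no descriptions were at hand. The code was tested on simulated data. Python 3.11.15, numpy 2.4.6, pandas 2.3.3 and matplotlib 3.10.9 were used.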

Additional observations from a re-analysis of the deposited data

How the results depend on the processing

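Over all genes compared, the counts of genes higher and lower at 20 DAP, 1033 and 4586 as deposited, came to 554 and 2155 at a pseudocount of 5. Median-ratio scaling gave 1920 and 2144, the same with factors from the 20 and 10 DAP columns alone 1867 and 1966, quantile normalization 1928 and 2207, and a 4-fold call 412 and 923. Leaving out the 100 most abundant genes gave 1862 higher. For genes of 100 TPM or more, the 206 higher became 372 on leaving out the 100 most abundant genes and 135 at a limit of 200 TPM. The 516 lower became 221, 220 and 276 under the 3 scalings in the order above, 249 at 200 TPM, 924 at 50 TPM and 160 at 4-fold.

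Of the 206 higher genes, 106, 43 and 57 were higher, within 2-fold and lower at 30 DAP. Each setting below draws the moving genes anew, so its counts need not add up to 206 or 221. The 43 became 92 under quantile normalization. On leaving out the 100 most abundant genes, where the limit applies to rescaled values, 113 were within and 154 lower. At 200 TPM the numbers were 26 within and 35 lower, and at 50 TPM 69 within. Of the 221 lower genes, 15, 29 and 177 were higher, within and lower. The 29 became 54 under median-ratio scaling, 46 under quantile normalization and 55 on leaving out the 100 most abundant genes, which gave 275 lower. At 50 TPM these were 36, 77 and 291, and at 200 TPM 5, 7 and 92.

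List medians were 0.21 as deposited for kafirin IDs, against 0.83, 0.84 and -0.45 under the 3 scalings. For starch synthesis the median was -0.999, against -0.39 and -0.37 with either set of median-ratio factors, and for sucrose synthase -1.56, against -0.95 and -0.93. Neither change of the filter moved a count by over 1.5 times. Of 489 recomputed differences of 87 named genes, 199 shifted by over 1.5-fold, and no gene past 2-fold changed sign. The median-ratio factors alone lift 20 DAP against 10 DAP by 1.53-fold with 5 columns and 1.55-fold with 2 columns, just past that limit. Those settings gave 70 and 65 of the 199, which therefore follow from the factors and not from single genes. Each scaling shifts genes of like level together by construction. No paired analysis was possible because there are no values per library, and leaving out each replicate could not be run either. Depth is unknown, so a gene listed at 0 cannot be told from one sampled too thinly.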
